A study of Mus musculus with 2 samples.

Results

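The genes described here are 10 surface or secreted molecules through which cells restrain or license immune attack: Cd274, Pdcd1lg2, Lgals9 and Pvr (ligands of T cell receptors), Cd80 and Cd86 (the B7 co-stimulators), Cd47 and Sirpa (the "don't-eat-me" ligand and its receptor), and Entpd1 and Nt5e (the ectoenzymes that make adenosine). They were chosen by name, 10 of the 31053 genes in the matrices, and all 10 were detected. Their unique molecular identifier (UMI) counts were read in 2 droplet single-cell RNA-seq libraries of mouse brain tumour at the symptomatic stage, in a C57BL/6 strain, labelled mIDH1 for the mutant isocitrate dehydrogenase 1 of the tumour model. Both libraries belong to this 1 group, so there is no untreated or wild-type tumour to compare with, and every comparison is between kinds of cell within the same libraries. The labels do not say whether the libraries came from separate animals, so the p-values measure only the spread between these samples, which may be technical. They name no driver, promoter or other allele of the model beyond mIDH1.

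As background, PD-L1 (Cd274) and PD-L2 (Pdcd1lg2) bind the inhibitory receptor PD-1 on T cells, while CD80 and CD86 bind CD28, which activates, and CTLA-4, which restrains. CD47 on a target cell engages SIRPα on macrophages and other myeloid cells and holds back phagocytosis. CD39 (Entpd1) converts extracellular ATP and ADP to AMP, CD73 (Nt5e) converts AMP to adenosine, and adenosine acts on receptors of immune cells. In gliomas the myeloid cells are microglia, macrophages that entered from blood, monocytes, neutrophils and dendritic cells.

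Cells were placed in 8 gates by raw UMIs, among barcodes with at least 200 genes and at most 15% mitochondrial UMIs. Tumour cells had at least 1000 Nras counts per 1000000 UMIs (CPM). Macrophages and microglia had at least 5 C1qa UMIs and were split at 2 Cx3cr1 UMIs into a Cx3cr1-high and a Cx3cr1-low gate. Monocytes had Ly6c2 and at least 5 Lyz2 UMIs, neutrophils at least 10 S100a8 and S100a9 UMIs together, basophils Mcpt8, dendritic cells Ccr7 and T cells Cd3e. Replicate 1 and replicate 2 gave 986 and 830 tumour cells, 178 and 168 Cx3cr1-high and 53 and 42 Cx3cr1-low macrophages, and 29 and 35 monocytes. They gave 15 and 16 neutrophils, 74 and 64 basophils, 43 and 33 Ccr7 dendritic cells and 25 and 27 T cells. The 237 cells that met more than 1 gate (7.44%) were left out; 134 of them met the tumour and the basophil gate, with a median of 55519.5 UMIs.

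The replicates kept 1740 of 2704 and 1446 of 2266 barcodes, with medians of 32091 and 35769 UMIs, and 10 barcodes occurred in both. Most gates carried their fixed markers. Tumour markers (Sox2, Nes, Tnc, Cdkn2a) summed to 563 and 553 CPM in the tumour gate, and all 5 basophil or mast cell markers were found in the basophil gate. All 4 monocyte markers were found in the monocyte gate, but 1 of them, Ly6c2, also defines that gate. The neutrophil gate had 4 of 5 neutrophil markers (Camp at 0), with Ngp at 1 UMI. Pan-immune markers (Ptprc, Tyrobp, Fcer1g) summed to 1.91 and 5.15 CPM in the tumour gate. Other values touch the results, and their part in them was not tested. Tumour markers also summed to 216 and 253 CPM in the basophil gate and 115 and 97.7 CPM in the dendritic gate. The dendritic gate had 5 of 7 dendritic markers (Cd209a and Xcr1 at 0) and held B cell markers at 171 and 206 CPM. Its T cell markers were at 357 CPM in replicate 1 and 7.24 CPM in replicate 2. In the T cell gate natural killer markers summed to 2520 and 1430 CPM, nearly all from Nkg7 (2490 and 1430 CPM). Ncr1 and Klrb1c were each at 15.5 and 0 CPM there. In the Cx3cr1-low gate 43 of 53 and 36 of 42 barcodes had no Malat1 UMI, and red-cell genes summed to 12100 and 35.3 CPM.

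**Figure D1:**
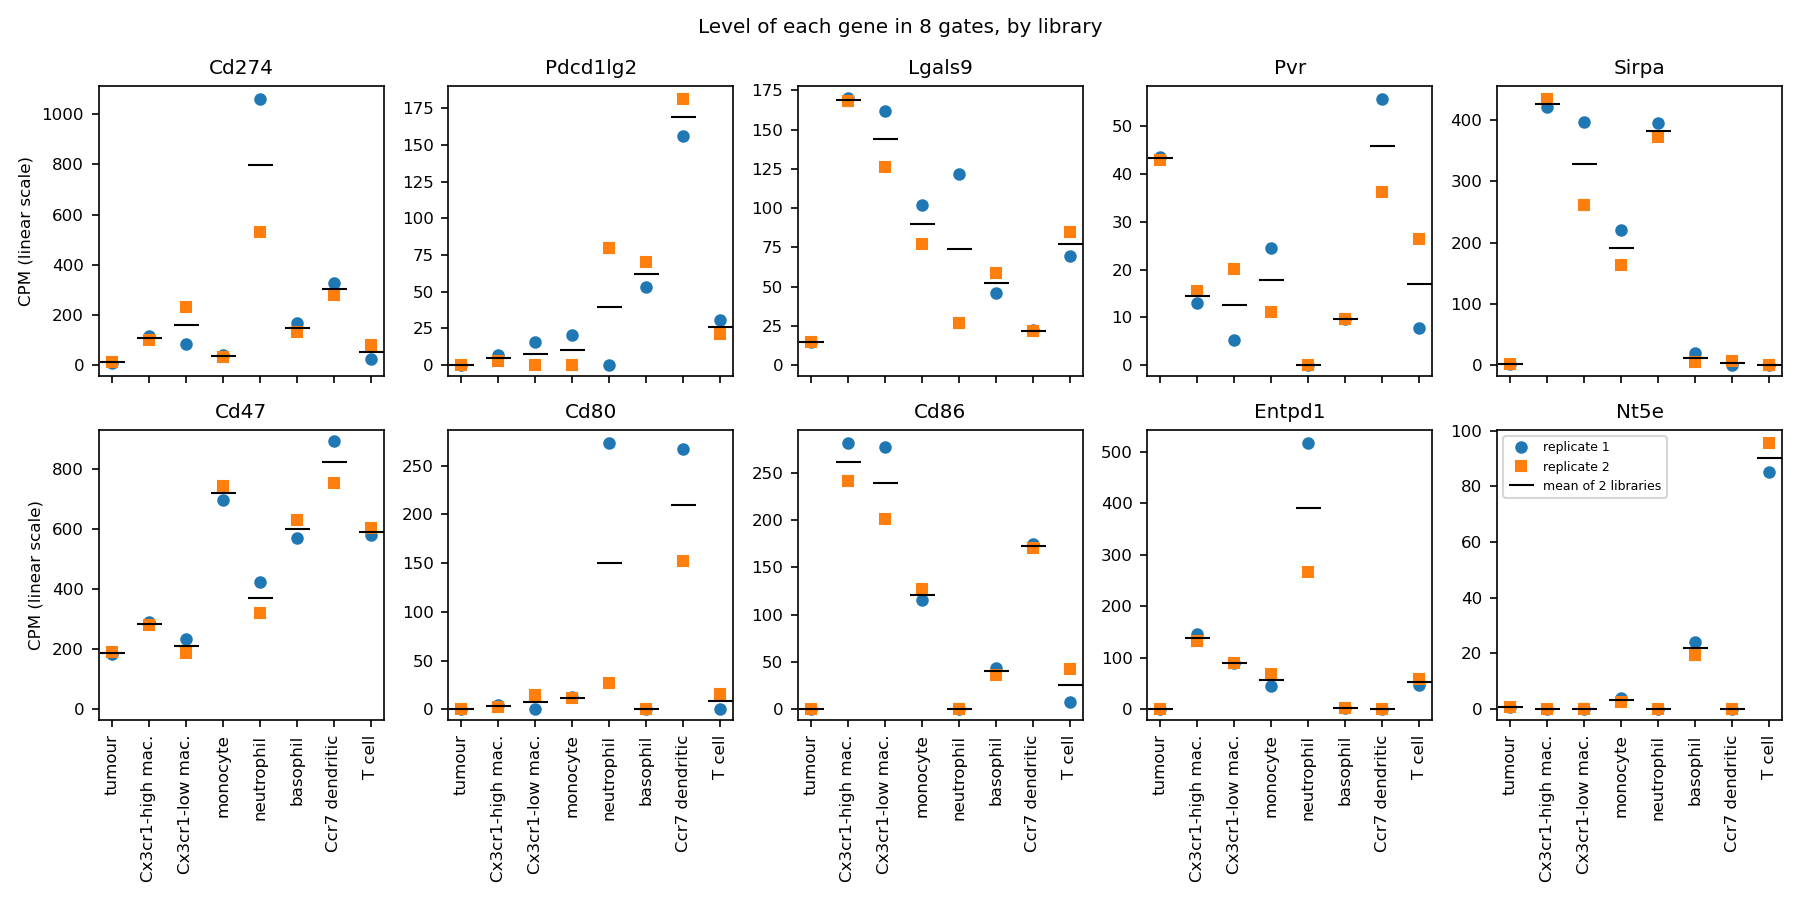
Level of each of the 10 genes (y axis, CPM on a linear scale that differs between panels) in the 8 gates (x axis). Circles are replicate 1, squares replicate 2 and lines the mean of both libraries. Cd274 sat highest in neutrophils and Ccr7 dendritic cells, Sirpa in Cx3cr1-high macrophages and neutrophils, Cd86 in the macrophage gates and Nt5e in T cells. Tumour cells had the lowest mean of the gates for Cd274, Pdcd1lg2, Lgals9 and Cd47.

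Cd274 lies on chromosome 19 (29367455 to 29388095, plus strand, mm10) next to Pdcd1lg2 (29410919 to 29471161). Cd80 and Cd86 lie on chromosome 16, and Lgals9 lies on chromosome 11 (78962974 to 78984946, minus strand). Promoter sequence is shown for Cd274 and Lgals9, the members with the largest differences between Gbp2-high and Gbp2-low tumour cells, and for Gbp2 itself, a guanylate-binding protein gene that interferon induces. Each is the RefSeq window (GRCm38.p6) from base -250 to base -40 before the gene's RefSeq start, read on the gene's own strand. Capitals mark the match to the interferon-stimulated response element core, GAAA, any 2 bases, GAAA, here on the opposite strand.
Cd274 (chr19:29367188-29367398, plus): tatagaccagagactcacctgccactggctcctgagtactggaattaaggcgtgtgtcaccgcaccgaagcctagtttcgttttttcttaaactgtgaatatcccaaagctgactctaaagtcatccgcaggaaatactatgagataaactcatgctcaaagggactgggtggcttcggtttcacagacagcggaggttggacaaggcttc
Lgals9 (chr11:78984964-78985174, minus): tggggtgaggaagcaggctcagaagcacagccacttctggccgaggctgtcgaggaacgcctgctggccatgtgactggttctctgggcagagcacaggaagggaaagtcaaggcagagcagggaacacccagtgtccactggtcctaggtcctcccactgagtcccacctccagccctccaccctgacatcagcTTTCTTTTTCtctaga
Gbp2 (chr3:142620413-142620623, plus): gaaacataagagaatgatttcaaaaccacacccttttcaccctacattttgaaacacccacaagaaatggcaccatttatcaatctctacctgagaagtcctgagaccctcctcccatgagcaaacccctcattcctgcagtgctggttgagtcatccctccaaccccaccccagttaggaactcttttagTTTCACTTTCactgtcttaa
In the full window of 250 bases, both strands were searched for that core, for the gamma-activated site TTCNNNGAA and for the NF-kappa-B site GGGANTTCC. Of the 7 members with a RefSeq promoter, only Lgals9 held a match, starting at base -55, and Gbp2 held one at base -59. The core was in 2.98% of 32851 mouse promoters, the gamma-activated site in 7.02% and the NF-kappa-B site in 1.43%. The match is a description of letters, and its absence from the Cd274 window covers only this window.

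Cd274, which encodes the PD-1 ligand PD-L1, was spread over the immune gates and low in tumour cells. Its level was 1060 CPM in replicate 1 and 531 in replicate 2 in neutrophils, 327 and 279 in Ccr7 dendritic cells, and 167 and 134 in basophils. Cx3cr1-high macrophages had 116 and 99.2 CPM and Cx3cr1-low macrophages 83.5 and 232 CPM. These gates all lay above tumour cells in both libraries, and the Cx3cr1-low libraries lay far apart: 34 UMIs of replicate 2 came from the 6 barcodes there that had Malat1 (930 CPM), against 74.1 CPM in the other 36. T cells held 23.2 and 79.5 CPM, monocytes 40.9 and 33.2, and tumour cells 10.4 and 11.6. By edgeR's quasi-likelihood test with Benjamini-Hochberg adjustment, in which a call needs an adjusted p under 0.05 and a log2 fold change of at least 1, monocytes, the lowest immune gate, were above tumour cells by 1.78 ± 0.40 (SE, adjusted p = 5.35e-05), where 15.5% of 13417 genes were lower in tumour cells. Cx3cr1-high macrophages were above T cells by 1.28 ± 0.35 (adjusted p = 0.00185, 11.8% of genes higher), a call lost with DESeq2 (1.19, adjusted p = 0.128) and with edgeR's filterByExpr (1.05, adjusted p = 0.0761). Neutrophils, tested only in a fit added after seeing the data that admitted gates of at least 10 cells, were above dendritic cells by 1.18 ± 0.29 (adjusted p = 0.000961, 4.49% of genes higher). No other neighbouring gates in the order were called apart.

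Pdcd1lg2, the gene of the second PD-1 ligand, was found mainly in dendritic cells and basophils. Ccr7 dendritic cells held 156 and 181 CPM and basophils 53.3 and 70.5 CPM, a difference of 1.16 ± 0.33 on the log2 scale (edgeR quasi-likelihood, adjusted p = 0.00357) in a pair where 6.93% of genes were higher in dendritic cells. That call was lost under the stricter gates, added after seeing the data (at least 5 Mcpt8 and 3 Ccr7 UMIs), where basophils had 69.1 and 143 CPM and dendritic cells 187 and 159 (0.29 ± 0.40 higher in dendritic cells, adjusted p = 0.776), and with DESeq2 (adjusted p = 0.141). T cells held 30.9 and 21.2 CPM and Cx3cr1-high macrophages 7.06 and 3.02 CPM. Those 4 gates gave counts in both libraries, but neutrophils (0 and 79.7 CPM), monocytes (20.4 and 0) and Cx3cr1-low macrophages (15.7 and 0) did so in 1 library each. Tumour cells held 0.105 and 0.0892 CPM, 9 UMIs in 1816 cells, and Cx3cr1-high macrophages were above them by 5.56 ± 0.68 (edgeR quasi-likelihood, adjusted p = 1.08e-15, 20.9% of genes lower in tumour cells). Pdcd1lg2 entered that test only through dendritic cells and basophils, where both libraries had at least 10 counts. Its lower tumour level is thus not independent of the filter.

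Lgals9 encodes galectin-9, a ligand of the inhibitory receptor TIM-3 among others. It was highest by level in Cx3cr1-high macrophages (170 and 168 CPM) and Cx3cr1-low macrophages (162 and 126 CPM). Monocytes had 102 and 77.4 CPM, T cells 69.6 and 84.8 and basophils 46 and 58.4, and neutrophils spread from 26.6 to 122 CPM. Dendritic cells, where the PD-1 ligands stood high, had only 22.3 and 21.7 CPM, close to the 14.7 and 14.9 CPM of tumour cells. Along the order, the 1 called step was from basophils down to dendritic cells (1.53 ± 0.47, edgeR quasi-likelihood, adjusted p = 0.00891, 8.55% of genes higher in basophils); dendritic and tumour cells differed by 0.28 ± 0.47 (adjusted p = 0.704). With cells of several gates kept, and so counted in each gate they met, the step from basophils to dendritic cells was -0.38 (edgeR, adjusted p = 0.401).

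Pvr encodes CD155, which binds the inhibitory receptor TIGIT and the activating receptor CD226 and, unlike the other 9 genes, was at or near its highest in tumour cells. These held 43.7 and 43 CPM, and dendritic cells held 55.7 and 36.2 CPM, a difference that was not called (-0.21 ± 0.34, edgeR quasi-likelihood, adjusted p = 0.693). Tumour cells were above monocytes (24.5 and 11.1 CPM) by 1.33 ± 0.45 (adjusted p = 0.00965, 19.9% of genes higher). Both macrophage gates and basophils lay between 5.22 and 20.1 CPM in every library, T cells at 7.73 and 26.5 CPM, and neutrophils had no Pvr UMI. Under the stricter gates (which also ask for 2 Cd3e UMIs in T cells), Pvr was 56 and 38.6 CPM in dendritic cells, which still held the tumour marker Cdkn2a at 9.33 and 81.4 CPM, and 0 in both libraries of basophils. The part of tumour RNA in the dendritic Pvr level was not tested.

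The B7 genes had different places. Cd80 was found mainly in Ccr7 dendritic cells, at 267 and 152 CPM; in neutrophils its 273 and 26.6 CPM rest on 10 UMIs in all. Monocytes had 12.3 and 11.1 CPM, T cells and Cx3cr1-low macrophages a count in replicate 2 only, and Cx3cr1-high macrophages 4.03 and 2.01 CPM. Basophils had no Cd80 UMI, so that dendritic cells were at least 57.4-fold higher (floor of 3 counts over the group). Tumour cells held 2 UMIs in 1816 cells, 0.021 and 0.0223 CPM.

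Cd86 was broad among antigen-presenting cells. Cx3cr1-high macrophages had 281 and 241 CPM, Cx3cr1-low 277 and 201, dendritic cells 175 and 170, and monocytes 115 and 127. These 4 gates lay apart from basophils at 43.6 and 36.5 CPM, monocytes being above them by 1.68 ± 0.34 (edgeR quasi-likelihood, adjusted p = 8.9e-06, 8.68% of genes higher in monocytes), though not called under the stricter gates (0.86, adjusted p = 0.147). T cells had 7.73 and 42.4 CPM and neutrophils none, and Cx3cr1-high macrophages were at least 6.15-fold higher than neutrophils. Tumour cells held 6 Cd86 UMIs, 4 of them in 1 cell.

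Cd47, the widely expressed ligand that restrains phagocytosis, was the member with the smallest fold between its highest and lowest gate. Dendritic cells had 895 and 753 CPM, monocytes 699 and 744, basophils 570 and 630, and T cells 580 and 604. Neutrophils had 425 and 319 CPM, Cx3cr1-high macrophages 290 and 279, Cx3cr1-low macrophages 235 and 186, and tumour cells 184 and 191. No neighbouring gates were called apart, the nearest to a call being T cells against neutrophils at 0.92 ± 0.35 (edgeR quasi-likelihood with gates of at least 10 cells, adjusted p = 0.0749).

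Sirpa, whose product is the CD47 receptor of myeloid cells, split the gates sharply. Cx3cr1-high macrophages had 421 and 434 CPM, neutrophils 395 and 372, Cx3cr1-low macrophages 397 and 262, and monocytes 221 and 163. Below these 4 came basophils at 19.4 and 4.86 CPM, and monocytes were above them by 4.02 ± 0.40 (edgeR quasi-likelihood, adjusted p = 1.97e-22, 8.68% of genes higher in monocytes). Ccr7 dendritic cells had 0 and 7.24 CPM, tumour cells 1.34 and 1.38, and T cells no Sirpa UMI, which put Cx3cr1-high macrophages at least 45.3-fold above T cells.

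The ectoenzymes were held mostly by different gates. Entpd1 (CD39) was at 516 and 266 CPM in neutrophils, 146 and 133 in Cx3cr1-high macrophages and 88.8 and 90.6 in Cx3cr1-low macrophages. Monocytes had 45 and 69.1 CPM and T cells 46.4 and 58.3 CPM; T cells were above basophils (2.42 and 2.43 CPM) by 4.21 ± 0.86 (edgeR quasi-likelihood, adjusted p = 2.37e-05, 3.41% of genes higher in T cells). No Entpd1 UMI was found in the 76 dendritic cells, so neutrophils were at least 69.5-fold and Cx3cr1-high macrophages at least 25.3-fold higher.

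Nt5e (CD73) was at 85.1 and 95.4 CPM in T cells and 24.2 and 19.5 CPM in basophils, a difference of 1.82 ± 0.66 (edgeR quasi-likelihood, adjusted p = 0.0491) that was not called when neutrophils were admitted to the fit (adjusted p = 0.0677), with no filter on low counts (0.112), with scrublet's doublets left out (0.0603) or with at most 10% mitochondrial UMIs (0.0509). Monocytes had 4.09 and 2.76 CPM and tumour cells 0.819 and 0.892 CPM. No Nt5e UMI was found in either macrophage gate, in neutrophils or in dendritic cells. T cells were thus at least 121-fold above Cx3cr1-high macrophages in Nt5e, and they also held Entpd1. Under the stricter gate the T cell values for Nt5e were 84.2 and 110 CPM.

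The share of cells with a UMI followed depth as well as level. Cd274 was seen in 27.5% of tumour cells and 40.8% of Cx3cr1-high macrophages, whose median depths over both libraries were 44092 and 10242 UMIs. Thinned to 1000 UMIs a cell, the shares were 1.33% of 1804 tumour cells (95% exact interval 0.854 to 1.97) and 7.25% of 345 Cx3cr1-high macrophages (4.74 to 10.5), leaving out 12 and 1 shallower cells. Thinned shares of Cd274 were 27.6% in dendritic cells, 30% in neutrophils and 16.8% in basophils, and those of Cd47 were 67.1% in dendritic cells, 63.5% in basophils and 16.9% in tumour cells. No gate is known to lack Cd274 or Cd47, so no background share could be set for them. Intervals cover counting error only.

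**Figure D2:**
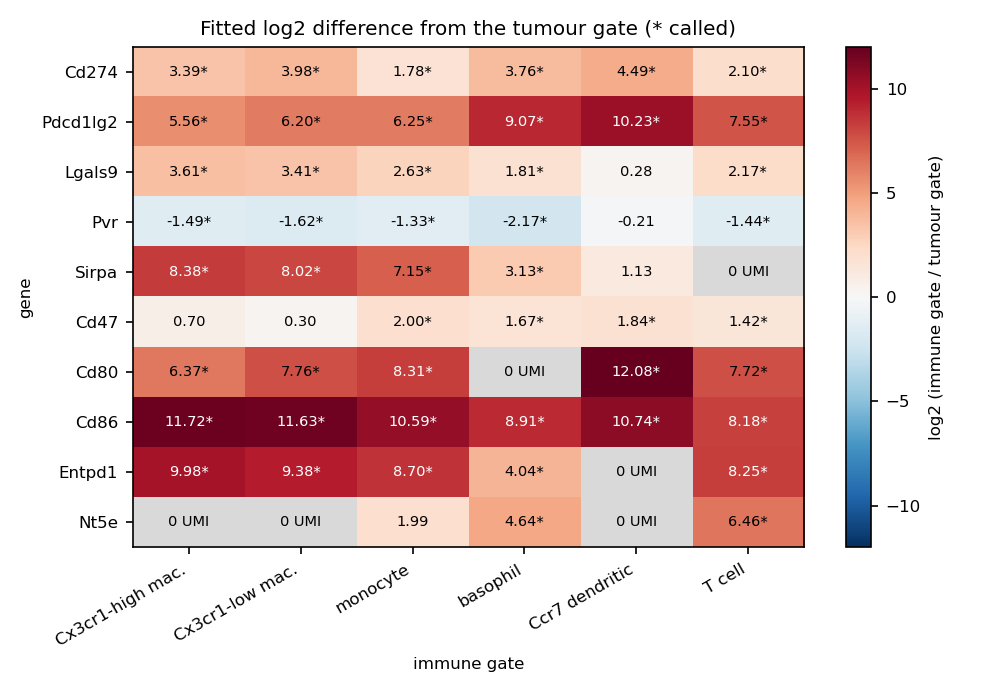
Fitted log2 difference of each of the 6 fitted immune gates (columns) from the tumour gate for each gene (lines); red is higher in the immune gate, blue higher in tumour cells, an asterisk marks a call, and grey marks an immune gate with no UMI of the gene. Cd274 is marked in 6 of 6 gates and Pvr is blue, with the dendritic gate unmarked at -0.21; values for Pdcd1lg2, Cd80, Cd86 and Entpd1 rest on 12 or fewer UMIs in tumour cells.

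Tumour cells were next set against each immune gate. Cd274 was lower in tumour cells in 6 of 6 pairs, by 1.78 (monocytes) to 4.49 (dendritic cells) on the log2 scale. Lgals9 was lower in 5 of 6, dendritic cells being the exception. Cd47 was lower in 4 of 6 and was not called against the Cx3cr1-high (0.70) and Cx3cr1-low (0.30) macrophages. Pvr went the other way, with a higher level in tumour cells in 5 of 6 pairs, by 1.33 to 2.17. Its call against T cells (1.44) was lost with DESeq2's size factors in edgeR (1.20, adjusted p = 0.119), with DESeq2 (0.16), with filterByExpr (0.0702) and with no filter (0.0579), and that against Cx3cr1-low macrophages with DESeq2 (1.51, adjusted p = 0.0846). With cells of several gates kept, basophils and tumour cells were not called apart in Pvr (0.02), Lgals9 (-0.06) or Cd47 (-0.10), each with an adjusted p of 0.999. In that setting a cell counts in each gate it meets, so the 2 gates shared cells. The basophil sums rose from 412636 and 411300 to 4858204 and 5167168 UMIs, most of them from cells of several gates. A small difference was thus built in, and this setting cannot test whether the 2 gates differ.

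Of the 10 members, 7 were lower in tumour cells than in Cx3cr1-high macrophages, where 20.9% of 13417 tested genes were lower, and 7 than in Cx3cr1-low macrophages (13% of genes). Against monocytes 8 were lower (15.5% of genes), against basophils 8 (9.98%), against T cells 8 (9.05%) and against dendritic cells 5 (12.4%). Pdcd1lg2, Cd80, Cd86 and Entpd1 had under 10 counts in each tumour library and entered these tests only through immune gates. Their lower tumour level is thus not independent of the filter. Pvr was the 1 member higher in tumour cells in each of 5 pairs, in which 26%, 14.3%, 19.9%, 10.7% and 16.1% of genes were higher (Cx3cr1-high, Cx3cr1-low, monocytes, basophils, T cells). Against neutrophils, in the added fit, 5 members were lower (7.01% of genes) and Pvr was called higher (13.9%). The Pvr call has a limit: neutrophils had no Pvr UMI. Their 95% upper limit over both libraries, 52.3 CPM, lies above the pooled tumour level of 43.4 CPM.

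Against the mean of the 6 immune gates, 6 members could be tested, since a gate with no count in either library gives no finite mean for Sirpa, Cd80, Entpd1 and Nt5e. Pvr was higher in tumour cells by 1.38 ± 0.21 (adjusted p = 8.79e-11), where 20.3% of 7871 genes were higher. Cd274 was lower by a log2 change of -3.25 ± 0.18, Lgals9 by -2.32 ± 0.19, Cd47 by -1.32 ± 0.15, Pdcd1lg2 by -7.48 ± 0.76 and Cd86 by -10.30 ± 0.50 (15.2% of genes were lower). The last 2 rest on 9 and 6 UMIs in tumour cells. They had under 10 counts in each tumour library and entered the test only through immune gates. A lower tumour level was thus close to fixed by the filter. The members' median was -2.78 beside 0.22 over the genes tested. That median includes Pdcd1lg2 and Cd86, so it is not independent of the filter either. The split over all genes depends on scaling: 1594 were higher and 1199 lower here, 1284 and 1407 with DESeq2's size factors in edgeR (median 0.06), and 1238 and 1416 with DESeq2. The 6 calls held in direction under both. With the immune gates summed, an alternative added after seeing the data, all 10 members were tested: 9 were lower (23.5% of 13504 genes) and Pvr was higher by 1.27 (23.4%). Of these 9, Pdcd1lg2, Cd80, Cd86 and Entpd1 entered only through the immune sum. Near the Nras threshold, cells at 1000 to 1500 CPM had Cd274 at 9.14 and 11.5 CPM, Lgals9 at 22.8 and 27.2, Pvr at 33 and 27.9 and Cd47 at 203 and 239. Cells of no gate at 500 to 1000 CPM had Cd274 at 13 and 13.7 CPM, Lgals9 at 21.9 and 25.6, Pvr at 41.6 and 23.7 and Cd47 at 244 and 246. On both sides Lgals9 and Cd47 lay above their levels over the whole tumour gate and Pvr below.

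Each immune gate was also set against the other immune gates. The dendritic gate had the most calls, 4 of 6 tested members: Pdcd1lg2 (3.31), Cd274 (1.48) and Pvr (1.40) were higher (8.81% of genes) and Lgals9 was lower (-2.44, 8.59% of genes). The Cx3cr1-high macrophages had Cd86 (1.72) and Lgals9 (1.55) higher (13.3%) and Pdcd1lg2 lower (-2.31, 4.47%). The Cx3cr1-low macrophages had Cd86 (1.60) and Lgals9 (1.31) higher (7.01%) and Cd47 lower (-1.23, 3.48%).

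Basophils had Pdcd1lg2 higher (1.91, 10.1% of genes), with the same filter limit, and Cd86 lower (-1.66, 7.21%). Monocytes had Cd274 lower (-1.77, 2.64%). T cells had Cd274 (-1.37) and Cd86 (-2.54) lower (7.22%). Neutrophils, in the added fit with 4 tested members, had Cd274 higher (2.44, 7.83%). With cells of several gates kept, 8 of the 15 calls among the 6 fitted gates were lost, and Pdcd1lg2 in basophils turned to -0.87 (edgeR, adjusted p = 0.0349). Gates shared cells in that setting, since a cell counts in each gate it meets. The call of Cd86 in Cx3cr1-low macrophages was lost under the stricter gates (0.96, under the fold threshold) and that of Cd274 in T cells with filterByExpr (-1.24, adjusted p = 0.0517). The stricter basophil gate, in which tumour markers Cdkn2a and Nes were at 9.22 and 7.15 and at 4.61 and 0 CPM, gave basophil Cd274 of 244 and 250 CPM, Pdcd1lg2 of 69.1 and 143 and Cd47 of 737 and 758. The stricter dendritic gate, with no Cd79a UMI, gave Cd274 of 382 and 317 CPM and Pdcd1lg2 of 187 and 159; it still held Cdkn2a at 9.33 and 81.4 CPM and Nes at 9.33 and 25.7.

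The 2 macrophage gates, one richer in the microglial fractalkine receptor Cx3cr1, were not told apart by these genes. By edgeR's quasi-likelihood test 0 of 10 members were called, beside 3.28% of 13417 genes, and 2 members (Cd274 and Entpd1) had an unadjusted p under 0.05; DESeq2 called 0 and had 0 at that level. Cd274 was -0.60 ± 0.25 (adjusted p = 0.191). A p that misses the threshold does not show that the gates are alike. Of the partner genes listed below, Ifngr1 (1.04), Icosl (3.86) and Adora1 (3.67) were higher in the Cx3cr1-high gate (1.95% of genes), and Lgals1 (-1.41), Lgals3 (-2.42), Tnfsf9 (-2.75) and the CD47 ligand thrombospondin gene Thbs1 (-2.15) were lower (1.33% of genes). Icosl and Adora1 had wide SEs (1.04 and 1.13). The Cx3cr1-low sums held 191545 and 198576 UMIs against 1983260 and 1985925 in the Cx3cr1-high gate. A sparse gene thus reaches the filter of 10 counts more readily through the Cx3cr1-high gate. The calls of Icosl and Adora1 may not be independent of that filter. Thbs1 in the Cx3cr1-low gate was 224 and 5.04 CPM, so its value rests on replicate 1.

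**Figure D3:**
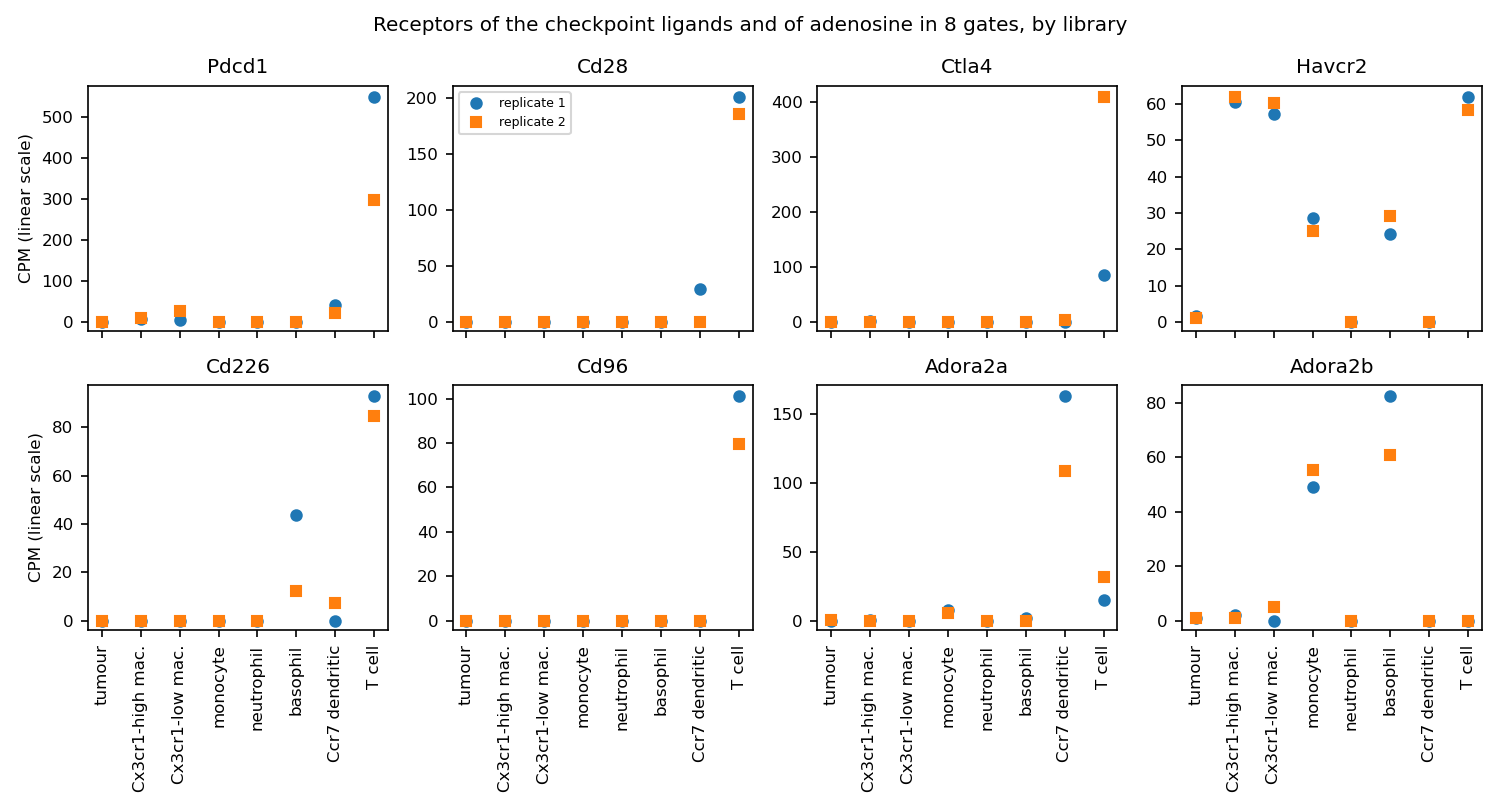
Level (y axis, CPM on a linear scale that differs between panels) of receptor genes for the checkpoint ligands and for adenosine in the 8 gates (x axis); circles are replicate 1 and squares replicate 2. Pdcd1, Cd28, Ctla4, Cd226 and Cd96 stood highest in T cells, Havcr2 in the macrophage and T cell gates, Adora2a in dendritic cells and Adora2b in basophils and monocytes.

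The receptors for these ligands were read from a list of 63 partner genes. Pdcd1, which encodes PD-1, was at 549 and 297 CPM in T cells, Cd28 at 201 and 186 and Ctla4 at 85.1 and 408. Icos, another co-stimulatory receptor, had 139 and 355 CPM there. All 4 were present in both T cell libraries, Ctla4 and Icos with the widest gap between them.

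The CD155 receptors Cd226 (92.8 and 84.8 CPM) and Cd96 (101 and 79.5) were also found in T cells, and Tigit gave 1 UMI there. Basophils had Cd226 at 43.6 and 12.2 CPM. Havcr2, which encodes TIM-3, was at 60.5 and 61.9 CPM in Cx3cr1-high macrophages, 57.4 and 60.4 in Cx3cr1-low macrophages and 61.9 and 58.3 in T cells, levels that overlap. Lag3, an inhibitory receptor for MHC class II, was at 388 and 463 CPM in Cx3cr1-high macrophages and 278 and 164 in T cells.

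Adenosine receptor genes were spread over several gates. Adora2a was at 163 and 109 CPM in Ccr7 dendritic cells. Adora2b was at 82.4 and 60.8 CPM in basophils and 49.1 and 55.3 in monocytes, and Adora3 at 64 and 73 in Cx3cr1-high macrophages. Thbs1 was at 478 and 235 CPM in monocytes and 334 and 611 in neutrophils.

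Of the 63 partners, 24 could be tested in tumour cells against the mean of immune gates. All 11 genes of the list named interferon signalling were lower in tumour cells (median -1.94), where 15.2% of genes were lower. The list also holds Cmtm6 (-2.25), which is not itself an interferon signalling gene. The adenosine kinase gene Adk (1.66) and the nucleoside transporter gene Slc29a1 (1.71) were higher, as was the galectin gene Lgals1 (adjusted p = 1.09e-59 by edgeR). Vsir, which encodes the checkpoint ligand VISTA (-5.46), the ATP receptor gene P2rx4 (-2.73) and the CD200 receptor gene Cd200r1 (-8.61) were lower. Cd200r1 entered that test only through counts in immune gates.

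**Figure D4:**
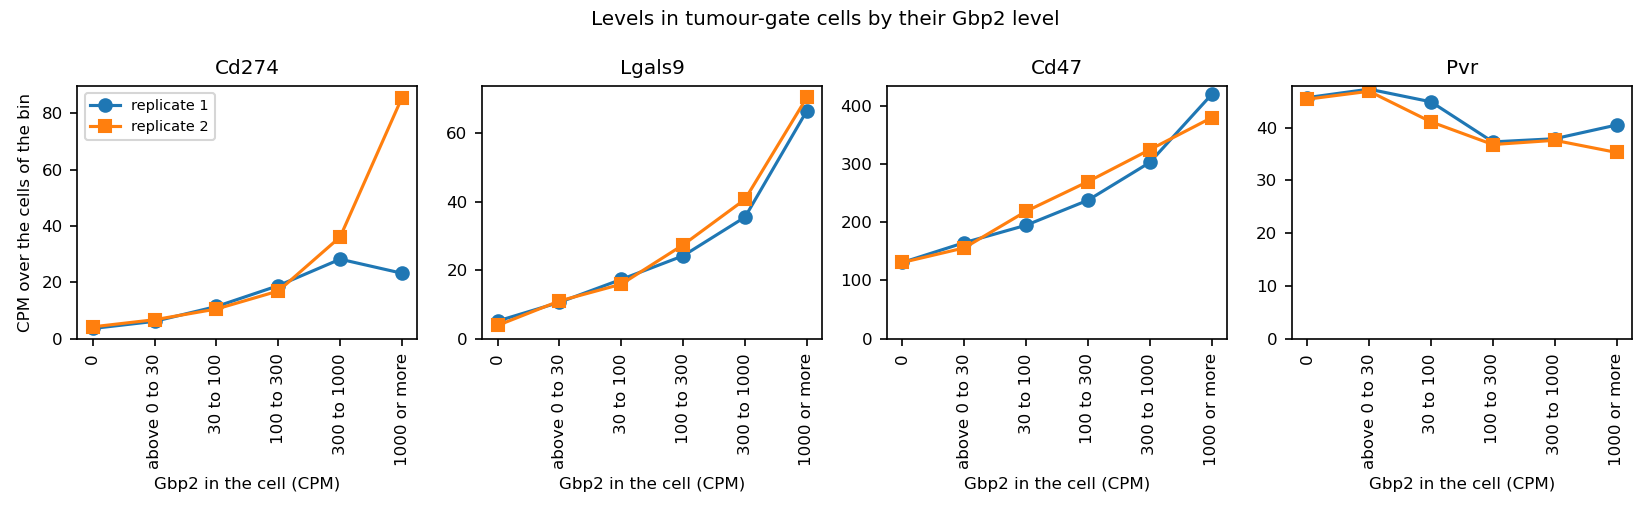
Level (y axis, CPM over the cells of a bin) of Cd274, Lgals9, Cd47 and Pvr in tumour cells by their Gbp2 level (x axis, 6 bins in CPM, finer than the 3 bins tested); circles and squares are replicates 1 and 2. Cd274 went from 3.59 and 4.17 CPM at a Gbp2 level of 0 to 28.2 and 36.1 at 300 to 1000 CPM, and the last bin holds only 8 and 9 cells.

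Tumour cells were then grouped by Gbp2, an interferon-induced gene, into low (480 and 415 cells), mid (268 and 221) and high (238 and 194) bins. Cd274 was at 3.55 and 4.14, then 9.19 and 8.64, then 22.8 and 27.7 CPM. Lgals9 was at 5.2 and 4.04, 14.4 and 13.6, and 30 and 34.7 CPM. Cd47 was at 132 and 132, 181 and 185, and 270 and 298 CPM. For all 3 genes the libraries of the bins did not overlap. In finer bins, Cd274 was at 23.2 and 85.6 CPM at 1000 or more Gbp2 CPM, where the libraries had 8 and 9 cells, lay far apart and gave no order against the bin below.

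Of 6 members tested, 4 were higher in the high than in the low bin, beside 3.06% of 11893 genes: Lgals9 by 2.76 ± 0.13 (adjusted p = 1.77e-09), Cd274 by 2.67 ± 0.13 (adjusted p = 1.85e-09), Cd47 by 1.06 ± 0.05 (adjusted p = 5.73e-10) and Sirpa by 1.06 ± 0.34 (adjusted p = 0.0291), all by edgeR's quasi-likelihood test with 2 residual degrees of freedom. The median of the 6 was 1.06, beside -0.00 over the genes tested. Sirpa rests on 126 UMIs in the tumour gate (0.799 and 1.15 CPM in the low bin, 2.06 and 2.13 in the high) and was not called with DESeq2 (adjusted p = 0.438). Cd274 and Lgals9 were also called between neighbouring bins: mid over low by 1.19 and 1.57, and high over mid by 1.48 and 1.19, where 0.765% and 1.51% of genes were higher.

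Pvr did not follow. It was at 45.6 and 44.9 CPM in the low bin, 46.2 and 45.3 in the mid bin and 37.7 and 37.1 in the high bin, a change of -0.32 ± 0.05 (edgeR quasi-likelihood, adjusted p = 0.000547) that is under the fold threshold. Nt5e was not called (0.81, adjusted p = 0.13), and Cd86 UMIs were found in 1 of 895, 1 of 489 and 1 of 432 cells of the low, mid and high bins. Pdcd1lg2, Cd80, Cd86 and Entpd1 had too few counts in tumour cells to be tested.

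Depth and marker sums differed between bins. Median UMIs were 38159 and 42738 in the low bin and 48234 and 50683.5 in the high bin, pan-immune markers summed to 2.0 and 2.75 against 1.35 and 10.6 CPM, and red-cell genes to 13.7 and 146 against 440 and 57.2 CPM. Tumour markers summed to 486 and 491 CPM in the low, 557 and 556 in the mid and 693 and 654 in the high bin, and oligodendrocyte markers to 1.75 and 1.5 in the low and 1.74 and 39.8 in the high bin; the part of these markers was not tested. Leaving out tumour cells with immune UMIs gave 2.65 for Cd274, 2.76 for Lgals9 and 1.04 for Cd47. Thinning each cell to 10000 UMIs within the same bins, an alternative added after seeing the data, left 451 and 389 low and 235 and 188 high cells and gave 2.32, 3.14 and 1.25, all called, with Sirpa too sparse to test. When cells were thinned first and then binned, the bins changed as well (635 and 550 low, 0 mid, 319 and 248 high cells), and the values were 1.78, 2.16 and 0.87, with Cd47 under the fold threshold. In the original bins, the share of cells with a Cd274 UMI at that depth was 3.57%, 10.2% and 20.6% over the bins (13.6%, 30.7% and 52.5% unthinned), and with a Pvr UMI 34.4%, 33.9% and 32.2%.

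Cd274 UMIs were uneven among tumour cells: 1018 UMIs fell in 499 of 1816 cells, 102 cells (5.62%) held 50% of them and 1 cell held 27. Pvr, with 4010 UMIs in 1364 cells, and Cd47, with 17342 in 1713, were spread over more cells, 323 and 398 of them holding 50%.

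Of the partners, 4 of the 11 genes on the interferon signalling list were higher in Gbp2-high tumour cells, beside 3.06% of the 11893 genes tested. Among them, Irf1 went from 40.4 and 39.8 to 182 and 167 CPM (2.08), Socs1 from 16.2 and 15.8 to 63 and 65.1 (1.96), and Nlrc5 from 13.7 and 13.5 to 34.6 and 31.2 (1.23). Of 11 other co-signalling ligands tested, Vsir was higher (1.01) and Ceacam1 (-1.07) and Nectin1 (-1.03) were lower (1.16% of genes). Havcr2, the 1 T cell receptor gene tested, was also lower (-1.60). Its UMIs were 69 in the low bin (2.2 and 1.25 CPM) and 14 in the high bin (0.476 and 0.681 CPM). With under 10 counts in each high-bin library, it entered the test only through the other bins. Its lower level is thus not independent of the filter. Of the 9 tested nucleotide and adenosine genes edgeR called 0, with 3 at an unadjusted p under 0.05, and DESeq2 called 0, with 2. Of the 6 tested phagocytosis signals edgeR called 0, with 5 at an unadjusted p under 0.05, and DESeq2 called 0, with 4; the fold threshold also applies to these calls.

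As a description, the gene whose mean log2(CPM + 1) over the 7 fitted gates was most like a member's was found by Pearson r. For Sirpa it was Cd33 (0.99), for Cd80 Nfkb2 (0.985) and for Cd274 Mir142hg (0.92). The 7 points share libraries, and 13417 genes were compared.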

How the data were processed

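Per the labels' protocols, Cell Ranger 3.1 aligned reads to mm10 with STAR and counted UMIs; the deposited values are whole UMI counts per gene and cell. The labels also describe equalising depth between runs; whether the deposited counts precede that step is not given in the sources used here. Gene places come from GENCODE M21 (30934 of 31053 IDs found) and promoters from RefSeq (GRCm38.p6).

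Counts of the kept cells were summed per library and gate (total 63001350 and 58915133 UMIs over all barcodes) and tested with edgeR 4.0.16 (quasi-likelihood, TMM, with a library term; 6 degrees of freedom remain) on genes with at least 10 counts in both libraries of at least 1 gate; gates needed at least 20 cells in each library. Genes that define a gate were dropped before Benjamini-Hochberg adjustment. CPM is a gate's counts divided by its total UMIs. Same-numbered sums come from the same library, which pairs the sums by replicate. DESeq2 1.42.0 was an alternative. Scrublet called 11 and 3 barcodes, under 0.5% of cells, so it was not relied on, and doublets were handled by leaving out cells of more than 1 gate. The fits were tested on simulated data. All 10 genes were named in every gate; of the 63 partners, receptors of the members and up to 3 called genes per role and comparison were named, plus 5 named after their values were seen (Icos, Lag3, Adora3, Lgals1 and Nlrc5). The genes and lists were chosen with earlier results of these data known. Some results are not reported here.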

Additional observations from a re-analysis of the deposited data

Results flagged for a closer look

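The 206 and 125 kept cells that met no gate in replicate 1 and replicate 2 entered no comparison, yet all 10 genes had counts there, above what a count of 0 allows. Over both libraries, Cd274 was at 26.4 CPM, Pdcd1lg2 at 2.27, Lgals9 at 30.8 and Pvr at 30.5. Sirpa was at 12.4 CPM, Cd47 at 279, Cd80 at 3.93, Cd86 at 12.2, Entpd1 at 4.53 and Nt5e at 2.87. These cells held Nras at 658 and 592 CPM, the haemoglobin gene Hbb-bs at 3180 and 3590, the myeloid gene Tyrobp at 194 and 193 and the B cell gene Cd79a at 58.6 and 52.3. Their part in the values was not tested.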

How the results depend on the processing

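No member reversed against the immune gates, between macrophage gates or between Gbp2 bins; between single immune gates, cells of several gates kept turned some calls, among them Pdcd1lg2 in basophils (1.91 to -0.87). Against the immune gates, the members called went from 6 to 10 with the immune gates summed, and the genes called from 2793 to 1801 with gates of at least 10 cells and 6328 with the gates summed, which test fewer and more genes; both were added after seeing the data. With cells of several gates kept, Cd47 was no longer called in that comparison (-0.84, edgeR adjusted p = 0.000274). The calls of each immune gate against the others went from 15 to 27, a count without the share over all genes beside it. In that setting a cell counts in each gate it meets, and the cause of these changes was not tested. For Gbp2, the members called went from 4 to 2 and the genes from 502 to 242 when cells were thinned to 10000 UMIs before binning, which also changed the bins; within the original bins, added after seeing the data, 3 members and 374 genes were called. DESeq2 called 300 genes. Sirpa was not called by DESeq2 (1.07), with cells of several gates kept (0.62), by bins at the quartiles of Gbp2 (0.93) or without tumour cells with immune UMIs (0.92). Thinned to 500 and 2000 UMIs, the share of cells with a Cd274 UMI was 14.5% and 44.6% in dendritic cells, and with a Cd47 UMI 9.31% and 28.4% in tumour cells. Between pairs of gates, 125 of 210 member tests were called, and 92 to 159 under the alternatives. Over all 13417 genes the share called differed widely by pair. It was lowest between the macrophage gates, at 3.28% in either direction. It was highest for tumour cells against Cx3cr1-high macrophages, at 26% higher and 20.9% lower. The count of member calls is thus not a result about the members. Without the library block (no replicate block, no pairing), 128 pair calls, 2818 genes against immune gates and 481 for Gbp2 were called, and no call of a member against the immune gates, between macrophage gates or between Gbp2 bins changed. Without 1 library, 12 of 12 and 8 of 8 called member values against the immune gates and between Gbp2 bins kept their sign. The macrophage comparison could not be fitted without barcodes lacking Malat1. Cd80, Cd86, Pdcd1lg2 and Entpd1 were near 0 in tumour cells, the gate with the most UMIs. Their 95% upper limits there were 0.0781, 0.141, 0.185 and 0.227 CPM over both libraries. A count of 0 says less in shallow gates, such as neutrophils, where it leaves an upper limit of 52.3 CPM.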
